A study of Mus musculus with 8 samples.

Results

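The genes described here carry out or control glycolysis or are known targets of the hypoxia response, together with the transcription factor subunits that drive that response. The list held 42 mouse genes, taken by symbol: 16 glycolytic enzymes, 6 genes of glucose uptake, lactate export and flux control, 17 other hypoxia targets and 3 subunits of the hypoxia-inducible factors (HIF). Of these, 38 were found on the array among 18193 named genes, each represented by its brightest probe set on average. All 38 passed the filter on low signal (over 5 on the log2 scale on 2 or more of the 8 arrays), which left 12177 genes for the tests. Gpi1 and Eno1 had no probe set with that symbol alone, Gapdh and Bnip3l shared theirs with other symbols, and these 4 were not analysed here.

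The arrays came from mouse tumours in which cells were sorted by how active the promoter of PSF1 was. PSF1 is the product of Gins1 and part of GINS, a complex needed to open DNA for replication. The EGFP-high LLC cells and EGFP-low LLC cells came from subcutaneous tumours of Lewis lung carcinoma, a mouse lung cancer line, 4 weeks after inoculation. The EGFP-high colon26 cells and EGFP-low colon26 cells came from subcutaneous tumours of a mouse colon cancer line, 2 weeks after inoculation. The inoculated lines of all 4 groups carried a stable EGFP gene driven by the mouse PSF1 promoter. Each cancer was represented by 1 line, and tumours were dissociated before fluorescence-activated sorting. Whether host cells without that gene were in the EGFP-low sorts was not tested. Each group had 2 arrays, numbered 1 and 2 and titled biological replicates. The labels do not say whether the numbers stand for separate tumours or mice. The p-values of the main fits therefore measure only the spread left among these arrays once the number is taken out as a block. The sample descriptions of the colon26 arrays name LLC, whereas title, source and cell line fields all give colon26, which was followed. Gins1 itself was higher in EGFP-high cells of both lines, by 1.28 on the log2 scale in LLC (SE 0.21, limma adjusted p = 0.0033) and by 1.07 in colon26 (SE 0.21, limma adjusted p = 0.017).

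Glycolysis splits glucose into pyruvate, which cells short of oxygen turn into lactate and export. When oxygen is plentiful, prolyl hydroxylases mark the HIF alpha subunits for destruction. When it is scarce, HIF1A or EPAS1 (HIF2A) pairs with ARNT and raises transcription of glycolytic enzymes, glucose transporters, angiogenic factors, collagen-modifying enzymes and mitophagy receptors. Poorly perfused regions of solid tumours commonly show this programme.

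In LLC tumours, EGFP-high cells had less RNA of many hypoxia targets than EGFP-low cells, while most glycolytic enzymes did not pass the test. The mean log2 change of a gene over the pairs of equal number was tested with limma, with the pair as a block, and adjusted over all 12177 genes at 0.05. Of the 38 genes, 11 fell, against 6.04% of all genes tested, and 1 rose, against 4.98% of all genes. The falls comprised 9 of 16 other hypoxia targets (Ndrg1, Plod2, P4ha2, Ero1a, Lox, Vegfa, Bnip3, Adm and Kdm3a), the glucose transporter Slc2a1 among the 6 uptake and flux genes, and the hexokinase Hk2 among 13 enzymes. None of the 3 HIF subunits passed. Lox and Epas1 passed the filter on low signal only through the EGFP-low arrays, so nothing is read from their part in the counts of this paragraph. The median change was -0.74 for the other hypoxia targets and -0.18 for the enzymes, against 0.04 for all genes tested. All 16 other targets had a negative mean change, and so did 8 of 13 enzymes. In the pairs numbered 1 and 2 the median over the targets was -0.81 and -0.78, and over the enzymes -0.22 and 0.02. Both EGFP-high arrays were below the EGFP-low array of the same number for 27 of 38 genes, against 32.3% of all genes, and above it for 2 of 38, against 40.9%. Without the pair numbered 1 only Ndrg1 and Plod2 still passed as falls (2 members), and without the pair numbered 2 there were 5, namely Ndrg1, Plod2, P4ha2, Ero1a and Lox. Without the pairing, 0 genes of the whole array passed in LLC by limma, with 6 of the 38 at an unadjusted p under 0.05 (6.52% of all genes), against 19 with it (25.2% of all genes). With the number as a block shared by the lines, 6 of the 11 still passed as falls, while Adm, Bnip3, Hk2, Kdm3a and Lox did not, nor did the rise of Slc2a3. In bulk RNA, fewer cells of a type and less RNA per cell cannot be told apart.

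**Figure D1:**
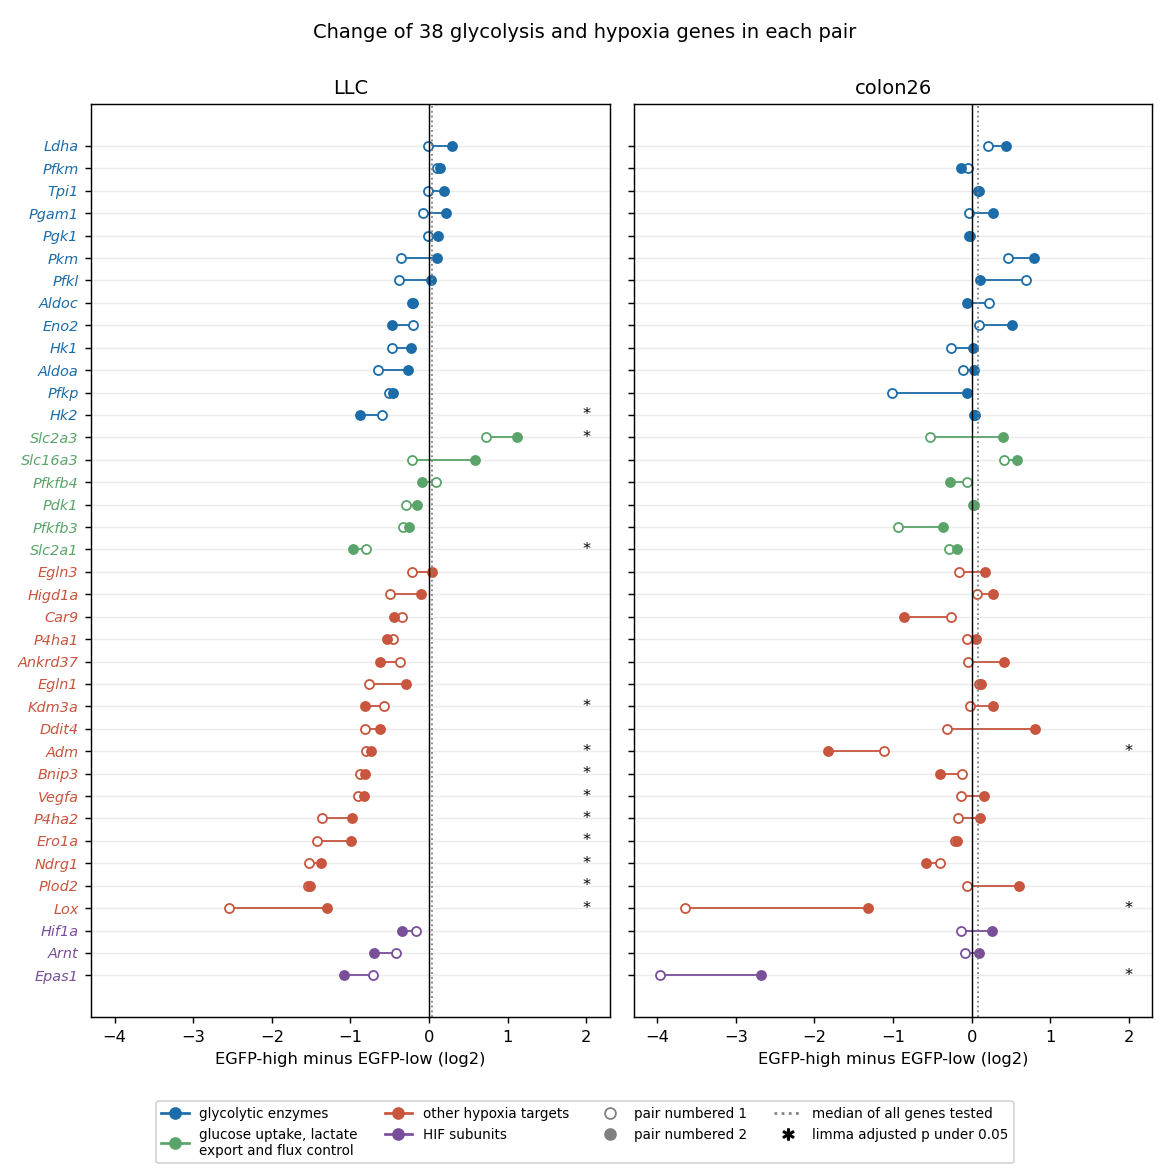
Log2 change of each of the 38 genes (x axis, EGFP-high minus EGFP-low), with 1 row per gene coloured by role; open points are the pair numbered 1, filled points the pair numbered 2, stars mark a limma adjusted p under 0.05 and the dotted line is the median of all genes tested. In LLC the 16 other hypoxia targets lie left of 0 on average, with 9 starred, whereas the 13 enzymes have 1 star; in colon26 Adm, Lox and Epas1 are starred.

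Ndrg1 (Entrez 17988, chromosome 15), a stress-responsive gene often used as a hypoxia marker, had log2 signals of 11.04 and 10.70 in EGFP-high LLC cells, against 12.56 and 12.08 in EGFP-low LLC cells. Its change was -1.45 (SE 0.18, limma adjusted p = 0.00087), a 2.74-fold lower signal. The 5 probe sets of Ndrg1 above the filter changed by -1.55 to -0.94 in LLC, all the same way. In colon26 the signals of Ndrg1 were 11.31 and 10.56 in EGFP-high cells, against 11.72 and 11.14 in EGFP-low cells, where the groups overlapped but each pair differed in the same direction. That change of -0.49 did not pass in colon26 alone (limma adjusted p = 0.2).

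Plod2 (Entrez 26432, chromosome 9), a lysyl hydroxylase that prepares collagen for cross-linking, had 10.85 and 10.04 in EGFP-high LLC cells, against 12.39 and 11.55 in EGFP-low LLC cells. It fell by 1.53 on the log2 scale (SE 0.20, limma adjusted p = 0.0012), and the groups did not overlap. In colon26 Plod2 had 9.65 and 7.89 in EGFP-high cells, against 9.71 and 7.29 in EGFP-low cells, so that the difference between arrays of different number was far wider than that between the sorts. P4ha2 (Entrez 18452, chromosome 11), the catalytic subunit of a collagen prolyl hydroxylase, had 6.11 and 6.16 in EGFP-high LLC cells, against 7.48 and 7.14 in EGFP-low LLC cells. P4ha2 fell by 1.17 (SE 0.19, limma adjusted p = 0.0034) in LLC, while in colon26 it had 7.40 and 7.60 in EGFP-high cells, against 7.58 and 7.49 in EGFP-low cells. The colon26 groups of P4ha2 overlapped.

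Ero1a (Entrez 50527, chromosome 14), the oxidase that forms disulfide bonds in the endoplasmic reticulum, had 10.08 and 10.09 in EGFP-high LLC cells, against 11.50 and 11.09 in EGFP-low LLC cells. Its fall of 1.21 (SE 0.19, limma adjusted p = 0.0026) was seen on 3 probe sets, at -1.21 to -1.12. In colon26 Ero1a had 9.83 and 9.23 in EGFP-high cells, against 10.05 and 9.42 in EGFP-low cells, with overlapping groups and a change of -0.20. Lox (Entrez 16948, chromosome 18), the secreted oxidase that cross-links collagen and elastin, had 4.29 and 4.45 in EGFP-high LLC cells, against 6.83 and 5.75 in EGFP-low LLC cells. In colon26 Lox had 4.58 and 4.68 in EGFP-high cells, against 8.23 and 6.00 in EGFP-low cells. The EGFP-high arrays lay below the filter in both lines, so background limits how large the change can appear, and Lox passed the filter only through the EGFP-low groups. The measured changes of Lox were -1.92 in LLC (SE 0.45, limma adjusted p = 0.021) and -2.48 in colon26 (SE 0.45, limma adjusted p = 0.012). Both calls were lost with a block shared by the lines, no filter, quantile normalization or trend and robust moderation (limma adjusted p = 0.051 to 0.26), the LLC call without LLC pair 1 and the colon26 call without either colon26 pair. Another probe set of Lox above the filter changed by -0.59 in LLC and -0.71 in colon26 and passed in neither (limma adjusted p = 0.13 and 0.15).

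The signalling, mitochondrial and chromatin targets that fell in LLC had smaller measured changes. Adm (Entrez 11535, chromosome 7), which encodes the vasodilator peptide adrenomedullin, had 11.43 and 10.85 in EGFP-high LLC cells, against 12.23 and 11.58 in EGFP-low LLC cells. In colon26 Adm had 5.89 and 5.21 in EGFP-high cells, against 7.01 and 7.04 in EGFP-low cells. The groups did not overlap in either line, and Adm fell by 0.77 in LLC (SE 0.21, limma adjusted p = 0.040) and by 1.47 in colon26 (SE 0.21, limma adjusted p = 0.0034). The other probe set of Adm changed by -0.65 in LLC and -0.59 in colon26 and passed in neither when every probe set was tested (limma adjusted p = 0.073 and 0.20), and the LLC call was lost with no filter (0.067) or quantile normalization (0.074). Vegfa (Entrez 22339, chromosome 17), the main angiogenic growth factor of this response, had 7.60 and 7.18 in EGFP-high LLC cells, against 8.51 and 8.0 in EGFP-low LLC cells, and fell by 0.87 (SE 0.18, limma adjusted p = 0.012). Vegfa in colon26 had 9.06 and 8.35 in EGFP-high cells, against 9.20 and 8.19 in EGFP-low cells, with overlap. The other probe set of Vegfa changed by 0.01 in LLC, and with the mean of both probe sets the change was -0.43 and did not pass (limma adjusted p = 0.12).

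Bnip3 (Entrez 12176, chromosome 7), a receptor that marks mitochondria for mitophagy, had 11.35 and 11.01 in EGFP-high LLC cells, against 12.23 and 11.83 in EGFP-low LLC cells. It fell by 0.85 in LLC (SE 0.18, limma adjusted p = 0.014). In colon26 Bnip3 had 11.73 and 10.70 in EGFP-high cells, against 11.86 and 11.11 in EGFP-low cells, overlapping between groups. Kdm3a (Entrez 104263, chromosome 6), a histone H3 lysine demethylase, had 10.39 and 9.66 in EGFP-high LLC cells, against 10.96 and 10.47 in EGFP-low LLC cells, and fell by 0.69 (SE 0.18, limma adjusted p = 0.037). Kdm3a in colon26 had 9.35 and 8.56 in EGFP-high cells, against 9.38 and 8.29 in EGFP-low cells, with a change of 0.12.

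The other 7 hypoxia targets did not pass in LLC or in colon26 alone. Their LLC changes ran from -0.72 for Ddit4, an inhibitor of mTORC1 signalling, to -0.09 for Egln3, a HIF prolyl hydroxylase. Egln1, the main oxygen-sensing hydroxylase, changed by -0.53 in LLC and by 0.11 in colon26. P4ha1, the paralogue of P4ha2, changed by -0.49 in LLC and by -0.00 in colon26. Higd1a, a mitochondrial respiratory-chain regulator, changed by -0.30 in LLC on the probe set used, while another of its probe sets changed by -0.78 and passed when every probe set was tested (limma adjusted p = 0.039).

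**Figure D2:**
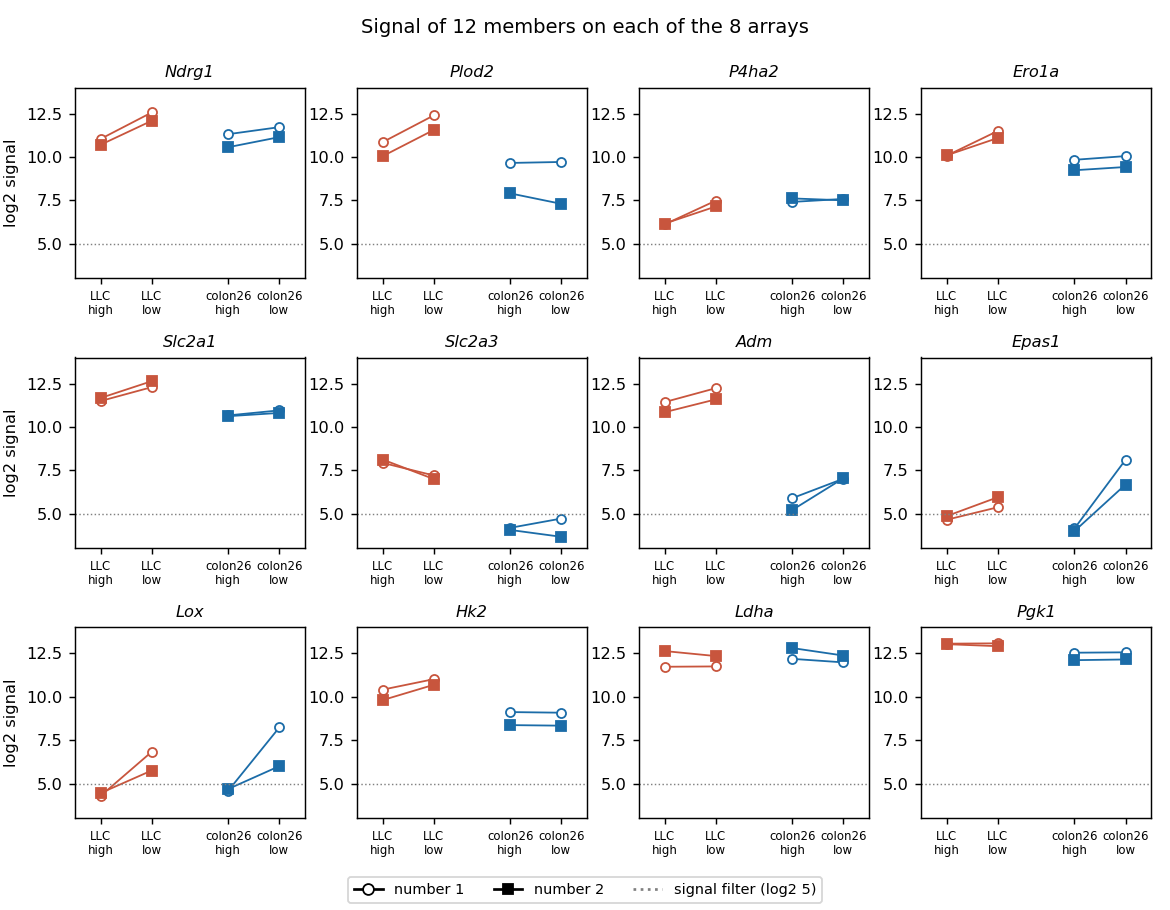
Log2 signal (y axis) of 12 of the genes on each of the 8 arrays, EGFP-high left of EGFP-low within LLC and within colon26; lines join arrays of equal number (open circles 1, filled squares 2) and the dotted line is the signal filter at 5. Ndrg1, Plod2, P4ha2, Ero1a and Slc2a1 slope up towards EGFP-low in LLC more than in colon26, Slc2a3 slopes down in LLC, and Epas1 and Lox lie below the filter in EGFP-high cells of both lines. Of the genes named as sloping more in LLC, only Plod2 passed the limma test of that difference between the lines.

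Glucose transporters went in opposite directions in LLC. Slc2a1 (Entrez 20525, chromosome 4), the widely expressed transporter GLUT1, had 11.49 and 11.67 in EGFP-high LLC cells, against 12.29 and 12.63 in EGFP-low LLC cells. It fell by 0.88 (SE 0.18, limma adjusted p = 0.010), and its 3 probe sets changed by -0.98 to -0.88. Slc2a3 (Entrez 20527, chromosome 6), the high-affinity transporter GLUT3, had 7.92 and 8.11 in EGFP-high LLC cells, against 7.20 and 6.99 in EGFP-low LLC cells. Slc2a3 rose by 0.92 (SE 0.24, limma adjusted p = 0.031), with 0.87 and 0.92 on its probe sets above the filter, and was the 1 gene of the 38 that rose. That call was lost without either LLC pair, and also with no filter (limma).

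In colon26 neither transporter passed. Slc2a1 had 10.66 and 10.62 in EGFP-high colon26 cells, against 10.95 and 10.80 in EGFP-low colon26 cells. Slc2a3 had 4.18 and 4.05 in EGFP-high colon26 cells, against 4.71 and 3.66 in EGFP-low colon26 cells, all below the filter. The other 4 genes of this role did not pass in either line alone. The lactate exporter Slc16a3 changed by 0.18 in LLC and 0.49 in colon26. Pdk1, the kinase that inhibits pyruvate dehydrogenase, changed by -0.23 and 0.03, Pfkfb4 by -0.00 and -0.17, and Pfkfb3 by -0.30 and -0.65. A dimmer probe set of Pdk1 changed by -1.02 in LLC and passed when every probe set was tested (limma adjusted p = 0.010), while its 2 others above the filter did not.

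Of the glycolytic enzymes, only Hk2 passed in LLC. Hk2 (Entrez 15277, chromosome 6), the inducible hexokinase that traps glucose in the cell, had 10.41 and 9.81 in EGFP-high LLC cells, against 11.02 and 10.69 in EGFP-low LLC cells. It fell by 0.74 (SE 0.18, limma adjusted p = 0.025), and the groups did not overlap. In colon26 Hk2 had 9.12 and 8.37 in EGFP-high cells, against 9.08 and 8.34 in EGFP-low cells, a change of 0.03. The other 12 enzymes changed by -0.48 to 0.13 in LLC and by -0.54 to 0.62 in colon26 without passing. Ldha, which turns pyruvate into lactate, changed by 0.13 (SE 0.18) in LLC and by 0.32 (SE 0.18) in colon26. Pgk1, the first ATP-yielding enzyme of the pathway, changed by 0.05 (SE 0.18) and -0.03 (SE 0.18), and Tpi1, the triose phosphate isomerase, by 0.09 and 0.08. Pkm, the last enzyme before lactate dehydrogenase, changed by -0.13 in LLC and by 0.62 in colon26 (limma adjusted p = 0.13). With an SE near 0.18 and 2 pairs, a p that misses the threshold does not show that an enzyme was equal in the sorts.

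In colon26 tumours, 3 of the 38 genes fell, Adm, Lox and Epas1, against 1.58% of all genes tested, and 0 rose, against 2.18%. At an unadjusted limma p under 0.05 there were 9, against 16.5% of all genes. Lox and Epas1 passed the filter on low signal only through the EGFP-low arrays, where they are high, so nothing is read from their count, and Adm is the 1 fall apart from them. Without the colon26 pair numbered 2 only 1 fall was left, and without that numbered 1 there were 2. The median change was -0.00 for the other hypoxia targets and 0.08 for the enzymes, equal to the 0.08 of all genes tested. Both EGFP-high arrays were lower than their pair for 13 of 38 genes, against 20.4% of all genes, and higher for 10 of 38, against 39.7%. Of the 16 other targets 9 had a negative mean change, and so did 5 of 13 enzymes. For all genes of the array the colon26 calls were 266 higher and 193 lower. With quantile normalization they were 43 higher and 109 lower, and with median centring 539 and 232, with all-gene medians of -0.01 and 0.17, so directions of small colon26 changes depend on the scaling.

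Epas1 (Entrez 13819, chromosome 17), which encodes the alpha subunit HIF2A, known as background to be abundant in endothelial cells, had the largest measured change of the 38 genes in colon26. It had 4.14 and 3.99 in EGFP-high colon26 cells, against 8.10 and 6.67 in EGFP-low colon26 cells. In LLC it had 4.65 and 4.86 in EGFP-high cells, against 5.36 and 5.94 in EGFP-low cells. EGFP-high arrays of both lines were below the filter, so Epas1 passed it only through the EGFP-low groups and its 10.0-fold lower signal in colon26 is limited by background. Its change was -3.32 in colon26 (SE 0.27, limma adjusted p = 8.8e-05) and -0.90 in LLC (SE 0.27, limma adjusted p = 0.060). Hif1a, the other alpha subunit, changed by -0.26 in LLC and 0.06 in colon26, and Arnt, the shared partner, by -0.56 (limma adjusted p = 0.080) and 0.00, none passing. Another probe set of Arnt changed by -0.67 in LLC and passed narrowly when every probe set was tested (limma adjusted p = 0.049).

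Averaged over both lines, 11 of the 38 genes fell by limma, against 5.57% of all genes tested, and 0 rose, against 7.47%. At an unadjusted limma p under 0.05 there were 15, against 27.4% of all genes. Lox and Epas1 were again among the falls. Both passed the filter on low signal only through the EGFP-low arrays, so nothing is read from their part in these counts. Of the 11 falls, 8 had also fallen in LLC, which is part of this average, so the overlap is built in. Only 2 of the 8, Adm and Lox, also passed in colon26 alone. The colon26 changes of the others ran from -0.49 for Ndrg1 to 0.27 for Plod2. Epas1 fell by 2.11 (limma adjusted p = 9.7e-05), Lox by 2.20 (0.0013), Adm by 1.12 (0.00067) and Ndrg1 by 0.97 (0.00064). Pfkfb3 and Car9 passed only in this average of the lines, with limma adjusted p-values of 0.0499 and 0.049. Both calls were lost without the pairing, with a block shared by the lines, with no filter, with quantile normalization or with median centring. That of Pfkfb3 was also lost with trend and robust moderation or with the mean of its probe sets. Another probe set of Pfkfb3 above the filter changed by 0.15 in LLC and -0.14 in colon26. Pfkfb3, which makes the activator of phosphofructokinase, had 6.87 and 6.59 in EGFP-high LLC cells, against 7.21 and 6.85 in EGFP-low LLC cells. In colon26 Pfkfb3 had 3.73 and 3.76 in EGFP-high cells, against 4.67 and 4.13 in EGFP-low cells, all below the filter. Car9, a carbonic anhydrase that handles the acid made by glycolysis, had 6.77 and 6.30 in EGFP-high LLC cells, against 7.11 and 6.74 in EGFP-low LLC cells, and 5.49 and 5.12 in EGFP-high colon26 cells, against 5.75 and 5.98 in EGFP-low colon26 cells. EGFP-high was lower in all 4 pairs for 10 of 38 genes, against 9.24% of all genes, and higher in all 4 for 0 of 38, against 21.4%. The median change was -0.45 for the other targets and 0.01 for the enzymes, against 0.04 for all genes, and the targets' median was -0.29 with the mean of a gene's probe sets. Leaving out 1 pair gave 4 falls without the LLC pair numbered 1 and 6 without each of the other pairs (5 of these 11 and 1 further gene without the colon26 pair numbered 2), and the pairs numbered 2 alone gave 3.

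The change itself differed between the lines for 2 of the 38 genes by the limma test of the LLC change minus the colon26 change, with 17 at an unadjusted p under 0.05, against 14.2% of all genes. Plod2 was lower by that test, by -1.80 (SE 0.29, limma adjusted p = 0.019), against 0.985% of all genes tested, its pairs giving -1.54 and -1.51 in LLC, against -0.06 and 0.60 in colon26. Epas1 was higher, by 2.42 (SE 0.38, limma adjusted p = 0.018), against 0.427% of all genes, its pairs giving -0.72 and -1.09 in LLC, against -3.96 and -2.69 in colon26. Since Epas1 was below the filter in EGFP-high cells of both lines, its fall cannot measure more than the height of its EGFP-low signal above background, a mean of 5.65 in LLC and 7.39 in colon26. Epas1 passed the filter only through the EGFP-low arrays, so nothing is read from its part in this count, and Plod2 is the 1 call apart from it. Without either colon26 pair neither gene passed. For P4ha2, Ero1a and Ndrg1 the differences of -1.14, -1.01 and -0.96 did not pass (limma adjusted p = 0.080, 0.12 and 0.12), so a larger fall in LLC was not shown for them. The count of falls in LLC beside that in colon26 is likewise no test of a difference between the lines.

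Markers of fibroblasts, macrophages and, in colon26, endothelial cells were in part lower in EGFP-high cells too. The counts below stand beside shares of all genes tested (limma). In LLC 6.04% of all genes fell and 4.98% rose, and in colon26 1.58% fell and 2.18% rose. Of 12 fibroblast markers 9 fell in LLC and 5 in colon26 (limma), with medians of -1.68 and -0.51. Their summed log2 signal was 13.41 and 13.33 in EGFP-high LLC cells, against 14.97 and 15.55 in EGFP-low LLC cells, and 15.05 and 15.13 in EGFP-high colon26 cells, against 15.60 and 15.30 in EGFP-low colon26 cells. None of the fibroblast markers was below the filter on all arrays. Of 15 macrophage markers tested 10 fell in LLC and 14 in colon26, with medians of -1.12 and -2.82 and sums of 9.84 and 10.00 in EGFP-high LLC cells, against 11.48 and 11.33 in EGFP-low LLC cells, and 10.62 and 11.20 in EGFP-high colon26 cells, against 13.49 and 12.82 in EGFP-low colon26 cells. Itgam, among 17 macrophage markers on the array, was never above the filter. Of 9 endothelial markers tested 1 fell in LLC and 4 in colon26, with medians of -0.34 and -0.99 and sums of 8.74 and 9.68 in EGFP-high LLC cells, against 8.87 and 10.04 in EGFP-low LLC cells, and 8.58 and 8.69 in EGFP-high colon26 cells, against 9.29 and 9.73 in EGFP-low colon26 cells. Tek and Vwf were never above the filter. Of 4 neutrophil markers tested 2 fell in each line, and of 5 pericyte markers 1 fell in LLC and 0 in colon26. Csf3r and Cxcr2 of the neutrophil list were never above the filter. The 1 adipocyte marker tested, Fabp4, fell in both lines. Adipoq, Cidec and Lep were never above the filter, so Fabp4 alone does not show adipocytes in either sort. C1qa, C1qc, Cd163, Aif1, Fcgr3, Fap, Thy1, Emcn, Cldn5, Rgs5, S100a9 and Fabp4 passed the filter on low signal only with the EGFP-low arrays. Nothing is read from their part in these marker counts and medians. None of the tested T and NK cell, B cell, skeletal muscle or keratinocyte markers passed in either line (limma), with medians of 0.14, 0.08, 0.17 and 0.27 in LLC and -0.22, -0.12, -0.20 and 0.09 in colon26, and 1 T and NK cell marker had an unadjusted p under 0.05, in colon26. The mitosis genes moved the other way, with 20 of 20 higher in LLC and 19 of 20 in colon26, and of 15 immediate early genes, which respond to handling and stress, 8 fell in LLC and 0 in colon26. The part of cell mixture, proliferation or handling in the falls of Lox, Plod2, P4ha2, Epas1 and the other genes was not tested.

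Promoters of these genes were read from RefSeq (GRCm38.p6), 250 bases before to 50 after each annotated start, for 33 of the 38 genes with 47 start windows. The core of the hypoxia response element was searched as ACGTG on both strands. It was present in 27 windows of the genes (57.4%), against 19.6% of all 32851 windows of the table, while the windows had a median GC content of 62.3%, against 52.7%. GCGTG, the other common core, was present in 55.3% of the genes' windows and 32.4% of all windows. The share with ACGTG was 54.5% in 11 windows of genes that fell in LLC and 58.3% in 36 windows of those that did not pass, and the core stood in 11 of 16 windows of the other targets and 11 of 22 of the enzymes. A match describes letters, not a bound site. The promoters of 2 targets that fell in LLC and of 2 enzymes that did not pass are shown, with ACGTG or its reverse CACGT in capitals, because both kinds carry the core. They are Bnip3 at chr7:138909457-138909756 (minus strand), P4ha2 at chr11:54100674-54100973 (plus strand), Ldha at chr7:46845554-46845853 (plus strand) and Pgk1 at chrX:106186850-106187149 (plus strand).
Bnip3: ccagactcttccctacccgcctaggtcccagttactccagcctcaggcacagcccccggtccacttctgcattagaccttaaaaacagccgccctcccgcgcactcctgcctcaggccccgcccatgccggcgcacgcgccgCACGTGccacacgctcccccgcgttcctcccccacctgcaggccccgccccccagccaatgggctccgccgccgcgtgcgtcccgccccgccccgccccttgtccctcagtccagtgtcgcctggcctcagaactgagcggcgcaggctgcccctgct
P4ha2: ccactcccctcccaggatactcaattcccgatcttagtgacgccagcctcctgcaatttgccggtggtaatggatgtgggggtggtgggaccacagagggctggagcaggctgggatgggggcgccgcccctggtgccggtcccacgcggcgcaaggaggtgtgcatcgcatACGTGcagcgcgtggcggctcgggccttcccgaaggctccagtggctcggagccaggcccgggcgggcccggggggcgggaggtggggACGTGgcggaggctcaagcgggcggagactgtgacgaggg
Ldha: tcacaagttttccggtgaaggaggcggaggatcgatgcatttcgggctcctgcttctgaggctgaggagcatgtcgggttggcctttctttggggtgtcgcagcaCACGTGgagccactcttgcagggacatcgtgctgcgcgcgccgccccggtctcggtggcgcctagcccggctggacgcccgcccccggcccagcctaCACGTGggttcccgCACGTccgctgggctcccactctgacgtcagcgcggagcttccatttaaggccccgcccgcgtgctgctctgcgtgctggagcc
Pgk1: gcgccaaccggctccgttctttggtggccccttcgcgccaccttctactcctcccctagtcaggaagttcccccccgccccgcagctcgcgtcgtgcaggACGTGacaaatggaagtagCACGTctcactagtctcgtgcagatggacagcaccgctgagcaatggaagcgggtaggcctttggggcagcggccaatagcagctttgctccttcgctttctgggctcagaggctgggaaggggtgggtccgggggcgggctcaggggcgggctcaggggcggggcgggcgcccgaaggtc
The Bnip3 window holds the 6-letter palindrome CACGTG, which counts on both strands. P4ha2 and Pgk1 each hold 2 separate matches. Ldha has 5 matches in fewer places, since its 2 copies of CACGTG each count on both strands. Beside these sequences stand LLC changes of -0.85 for Bnip3 and -1.17 for P4ha2, against 0.13 for Ldha and 0.05 for Pgk1.

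Between the tumour lines, over both sorts, most of the 38 genes were higher in LLC. With LLC minus colon26 tested by limma with the replicate number as a block, 24 were higher, against 25.5% of all genes tested, and 4 were lower, against 33.1%. The median difference was 0.68 for the 38 genes and -0.08 for all genes. It was 2.22 for uptake and flux genes, 0.67 for other targets, 0.51 for HIF subunits and 0.48 for enzymes. Egln3, Slc2a3, Aldoc and Pfkfb3 passed the filter on low signal only through LLC arrays, and Eno2 only through colon26 arrays. Nothing is read from their part in these counts and medians. Of all genes, 3104 were higher and 4029 lower, and with median centring 3752 and 2937, where the all-gene median was 0.08. Line, tumour age and any processing by line cannot be told apart.

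Egln3 (Entrez 112407, chromosome 12), a hydroxylase that is itself a HIF target, differed most, with 11.04 and 11.04 in EGFP-high and 11.25 and 11.00 in EGFP-low LLC cells, against 4.06 and 4.10 in EGFP-high and 4.23 and 3.94 in EGFP-low colon26 cells. Its difference of 7.0 (SE 0.12, limma adjusted p = 1.1e-08) is limited by background, since no colon26 array was above the filter. Adm was higher in LLC by 5.24 (SE 0.15, limma adjusted p = 6.4e-08), a 37.7-fold difference in signal, and Slc2a3 by 3.41 (SE 0.20, limma adjusted p = 2.8e-06). No colon26 array was above the filter for Slc2a3 either, so background limits its difference too. Pfkp, the platelet-type phosphofructokinase, had 9.56 and 8.96 in EGFP-high and 10.06 and 9.42 in EGFP-low LLC cells, against 6.33 and 5.92 in EGFP-high and 7.35 and 5.98 in EGFP-low colon26 cells, a difference of 3.10 (SE 0.17, limma adjusted p = 2.1e-06). None of the LLC arrays overlapped a colon26 array for these 4 genes.

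The genes lower in LLC were Eno2, Ankrd37, Vegfa and P4ha2. Eno2, the neuronal enolase, had 3.54 and 3.72 in EGFP-high and 3.75 and 4.20 in EGFP-low LLC cells, all below the filter, against 5.50 and 6.28 in EGFP-high and 5.41 and 5.77 in EGFP-low colon26 cells. It differed by -1.93 (SE 0.14, limma adjusted p = 9.2e-06). Ankrd37, an ankyrin-repeat protein, had 7.24 and 7.39 in EGFP-high and 7.61 and 8.01 in EGFP-low LLC cells, against 8.68 and 8.52 in EGFP-high and 8.72 and 8.11 in EGFP-low colon26 cells, a difference of -0.95 (SE 0.17, limma adjusted p = 0.0021). Vegfa differed by -0.88 and P4ha2 by -0.80, with limma adjusted p-values of 0.00089 and 0.0012. Hif1a was higher in LLC by 0.69 and Arnt by 0.51 (limma adjusted p = 0.0055 and 0.010), while Epas1 did not pass.

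**Figure D3:**
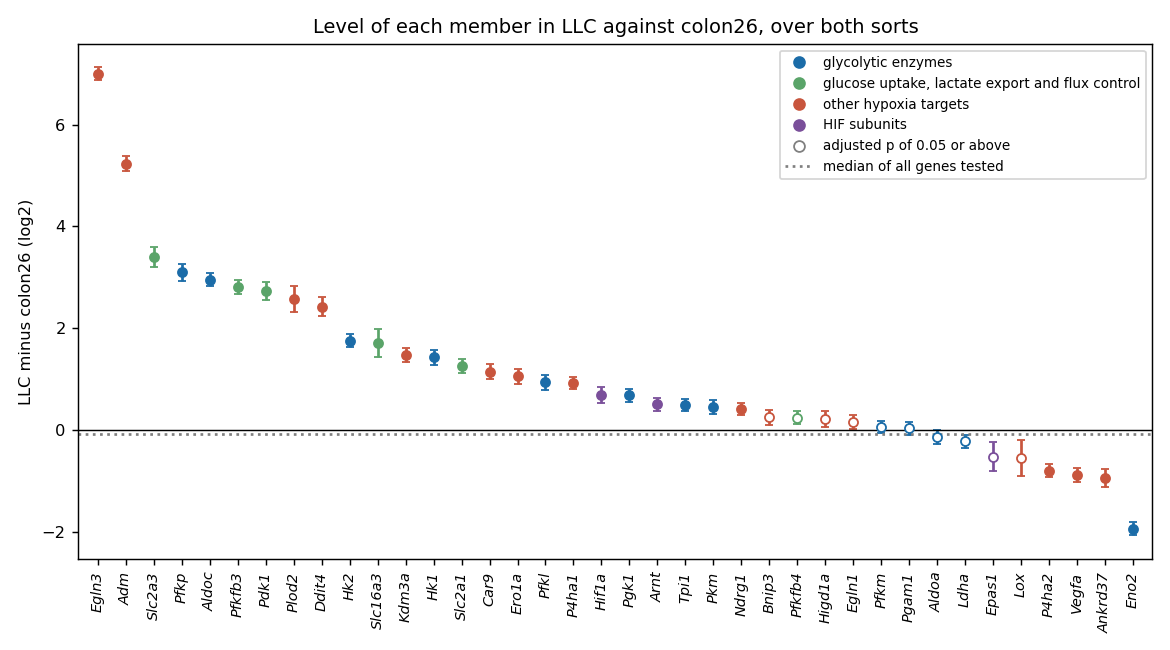
LLC minus colon26 over both sorts (y axis, log2) for each of the 38 genes in falling order, with the SE as bars; filled points have a limma adjusted p under 0.05 and the dotted line is the median of all genes tested. Egln3 stands at 7.0 and Adm at 5.24, and of the 28 filled points 24 lie above 0.

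Arrays numbered 1 and 2 differed for many of these genes in all 4 groups, and the high and low arrays are therefore set against each other within a number. Affymetrix control probe sets near the 3′ and 5′ ends of a transcript differed by a median of 2.55 ± 0.13 on the log2 scale on arrays numbered 1 (SD, n = 4) and 0.18 ± 0.15 on those numbered 2 (SD, n = 4). Number 2 minus number 1, averaged over the 4 groups, was above 0 for 10 of 13 enzymes (median 0.51) and for 1 of 16 other targets (median -0.34). It was 2.01 for Pfkl, 2.00 for Pkm and 1.19 for Tpi1, against -1.46 for Plod2. Pkm, for instance, had 10.60 and 12.76 in EGFP-high LLC cells, against 10.96 and 12.66 in EGFP-low LLC cells. For Pkm this shift exceeded the difference between the sorts, and its part in the values within a pair was not tested.

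**Figure D4:**
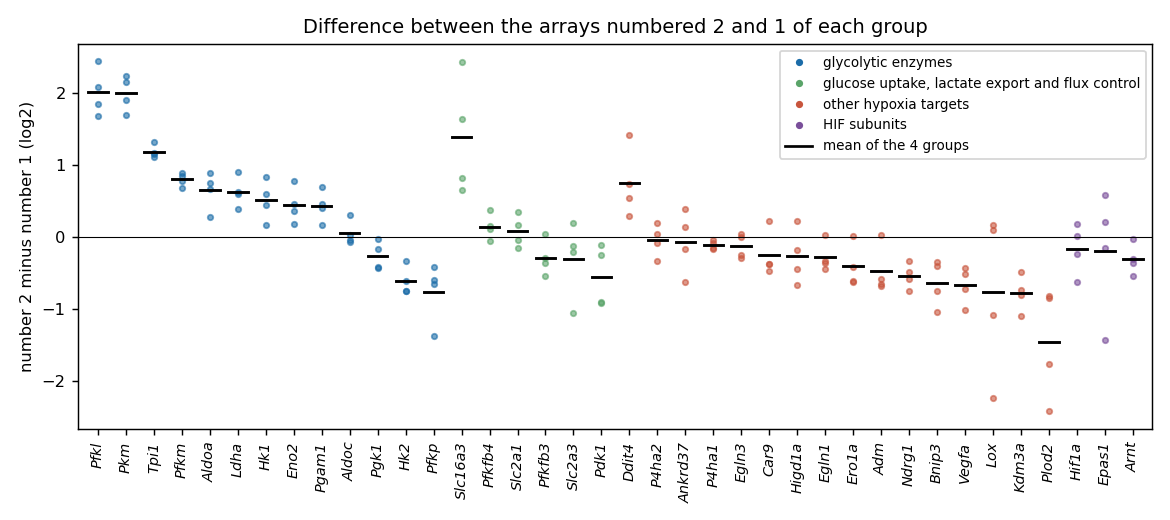
Array numbered 2 minus array numbered 1 (y axis, log2) for each of the 38 genes, with 1 dot per group and a bar for the mean of the 4 groups. Of the 13 enzymes 10 have a mean above 0, up to 2.01 for Pfkl, while 15 of 16 other hypoxia targets lie below 0, down to -1.46 for Plod2.

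Further genes of the same pathways were counted from wider lists. Of 28 other glycolysis and glucose genes tested, 1 rose and 1 fell in LLC and 0 passed in colon26 (limma), with medians of 0.05 and 0.11. For all genes the shares that rose and fell were 4.98% and 6.04% in LLC, so these counts are near the background. At an unadjusted limma p under 0.05 there were 4 in each line, against 25.2% of all genes in LLC and 16.5% in colon26. None of 6 pentose phosphate genes passed in either line by limma, and 0 had an unadjusted p under 0.05. Of 31 other oxygen-sensing and hypoxia genes tested, 1 rose and 9 fell in LLC (limma), against 4.98% and 6.04% of all genes. In colon26, 0 rose and 3 fell (limma), against 2.18% and 1.58% of all genes. Cxcr4, among these falls, passed the filter on low signal only through EGFP-low arrays, so nothing is read from its part in this count. The medians of this list were -0.31 in LLC and -0.02 in colon26.

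Igfbp3, which binds insulin-like growth factors, had 4.93 and 5.14 in EGFP-high LLC cells, against 6.52 and 7.72 in EGFP-low LLC cells, and fell by 2.09 (limma adjusted p = 0.0010). In colon26 Igfbp3 had 5.57 and 4.94 in EGFP-high cells, against 8.96 and 9.14 in EGFP-low cells, and fell by 3.80 (limma adjusted p = 2.7e-05). Its EGFP-high signals lay close to the filter on low signal in both lines, so background limits how large these changes can appear. Hmox1, the haem-degrading enzyme, had 5.56 and 9.13 in EGFP-high LLC cells, against 8.43 and 11.20 in EGFP-low LLC cells, and fell by 2.47 (limma adjusted p = 0.00024). Within each LLC pair Hmox1 was lower in EGFP-high cells, although the groups overlapped across numbers. Its colon26 change was -0.24, and the difference between the lines passed, at -2.23 (limma adjusted p = 0.013). Stc1, a secreted glycoprotein hormone, had 6.45 and 6.17 in EGFP-high colon26 cells, against 8.44 and 7.58 in EGFP-low colon26 cells, and fell by 1.70 (limma adjusted p = 0.0019). Bhlhe40, a transcriptional repressor of the clock, fell by 1.03 (limma adjusted p = 0.0063) and Plod1, a paralogue of Plod2, by 0.97 (limma adjusted p = 0.0059) in LLC.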

How the data were processed

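RNA of cells sorted from the tumours was hybridised to 1-colour Affymetrix mouse arrays, 8 in all with 2 in each of 4 groups, which limits the precision. The deposited values are log2 signals that the authors summarised by RMA for 45101 probe sets, per the submitters' processing notes; which software and version ran RMA is not given in the sources used here. Platform annotation gave 34945 probe sets 1 gene symbol, 932 several and 9160 none, and 64 were controls; those with 1 symbol were named through RefSeq (GRCm38.p6).

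From these values, limma 3.58.1 in R 4.3.3 was fitted to the 12177 genes above the filter, with moderated variances and p-values adjusted by Benjamini-Hochberg over all of them within a contrast at 0.05. All 8 arrays shared 1 estimate of the spread. High and low arrays were paired by number within a line (block, 2 residual and 8.25 prior degrees of freedom); for LLC minus colon26 the number was a block shared by the lines. The pairing rests on the numbers alone, since no label ties a number to an animal or a day. Number 2 minus number 1 correlated across genes between the high and low groups at r = 0.89 in LLC and 0.84 in colon26, with genes not independent, and at 0.74 to 0.84 between groups of different lines, so the number's effect was largely shared by the lines. The fits were tested on simulated data. Promoters were read and figures drawn in Python 3.11.15 with matplotlib 3.10.9.

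Members and gene lists were chosen with earlier results of these data known, so lists are described by counts and medians and not tested. Values on every array are given for members passing in any contrast of high and low, and for the 4 of each sign with the largest line difference; of wider lists, at most 12 passing genes with the smallest p. Ldha, Pgk1, Pkm, Pfkl, Tpi1 and others that did not pass were chosen for mention with their values known. The alternatives comprised no block or a shared block, other filters, the arrays of 1 line, 2 other scalings, trend and robust moderation, the mean of a gene's probe sets and leaving out each pair; using only the pairs numbered 2 was added after the data were seen.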

Additional observations from a re-analysis of the deposited data

Results flagged for a closer look

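For 2 genes the change between sorts differed between the lines by the limma test of the difference itself. Epas1 had a difference of 2.42 (LLC change minus colon26 change, SE 0.38, limma adjusted p = 0.018), with EGFP-high lower than EGFP-low in 4 of 4 pairs and by more in colon26. Its EGFP-high means, 4.75 in LLC and 4.06 in colon26, were below the filter, against EGFP-low means of 5.65 and 7.39, so background limits the size of both changes and of their difference. Epas1 passed the filter only through the EGFP-low arrays, so nothing is read from its count among the 2. It no longer passed without the pairing (limma adjusted p = 1.0), with a block shared by the lines (0.20), with no filter (0.057), with quantile normalization (0.13) or without colon26 pair 1 or 2 (0.13 and 0.18). Plod2 had a difference of -1.80 (SE 0.29, limma adjusted p = 0.019), with EGFP-high lower in both LLC pairs and changes of opposite sign in the colon26 pairs. It was lost in the same alternatives, at limma adjusted p-values of 1.0, 0.31, 0.051, 0.095, 0.13 and 0.27. With either colon26 pair left out, 0 genes of the whole array passed this test.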

How the results depend on the processing

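No alternative turned the sign of a called value: of 656 alternative values for 56 called gene and contrast values, 507 kept the call and 149 lost it, and 31 of 1665 values not called gained one. Without the replicate block, 0 members rose and 0 fell in LLC, 0 fell in colon26, 0 fell over both lines, and 0 and 0 differed between the lines; with the block shared by the lines these were 0 and 6, 2, 7, and 0 and 0. Members rising in LLC (1) became 0 with no filter or quantile normalization and 0 to 1 on leaving out a pair. Members falling in LLC (11) ranged from 2 to 10 on leaving out a pair. In colon26, members rising (0) became 1, Pkm, with trend and robust moderation, and members falling (3) became 1 with a filter of 7 and 1 to 3 on leaving out a pair. Falls over both lines (11) became 4 to 6 on leaving out a pair and 3 with only the pairs numbered 2. Between the lines, the 1 member with a higher change became 0 with no filter, a filter of 7 or quantile normalization, and the 1 with a lower change became 0 with no filter or quantile normalization, 2 with a filter of 7 or median centring and 3 with trend and robust moderation; each was 0 to 1 on leaving out a pair. The enzymes' median in LLC (-0.18) ranged from -0.22 to 0.019 on leaving out a pair, and the targets' median (-0.74) from -0.81 to -0.74, and was -0.69 with the mean of probe sets, which also moved their median over both lines (-0.45) to -0.29. The enzymes' median in colon26 (0.08) was 0.058 with a filter of 7, -0.0166 with quantile normalization, 0.16 with median centring and 0.115 with the mean of probe sets, and ranged from 0.034 to 0.082 on leaving out a pair. The cause was not tested, except that leaving out a pair leaves fewer samples. A filter of 7 also removed Epas1 and Lox before the test. Their colon26 calls, and the higher between-line change of Epas1, were therefore not tested in that setting. Counts between LLC and colon26 over both sorts stayed within 1.5 times in the alternatives run. Levels at or below the filter, in 7 of the 38 genes for at least 1 group, limit the size of a change.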
